A study of Mus musculus with 800 samples.

Results

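Pou4f1, Pou4f2, Pou4f3, Isl1 and Isl2 were described cell by cell in the embryonic mouse retina, as 5 of the 49585 gene rows of a single-cell count table. They were chosen by name as the 3 class IV POU factors and the 2 Islet factors, and not by a cut on measured values. Earlier results of these data were known when they were chosen. The retinas came from C57BL/6 Sert-Cre embryos at embryonic day E15.5, and both groups carry this genotype. The Cre is driven by the gene for the serotonin transporter, Slc6a4. Sorting gave 400 Tomato+ and 400 Tomato- cells. The labels name neither the reporter allele nor the sort gate, and the retinas were pooled, so each group is 1 sample with no animal per cell. Cells with at most 20% of counts in mitochondrial genes were used, which left out 73 Tomato+ and 38 Tomato- cells and kept 689.

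Class IV POU factors (Pou4f1, Pou4f2 and Pou4f3, also called Brn3a, Brn3b and Brn3c) bind DNA through a POU-specific domain and a POU homeodomain. Islet factors pair a homeodomain with LIM domains, through which they join co-factors such as Ldb1. In the mouse retina Pou4f2 and Isl1 act together early in retinal ganglion cells (RGCs), the output neurons of the eye, to switch on the RGC programme downstream of Atoh7. Pou4f1 and Pou4f3 come on later in overlapping subsets of RGCs. Isl2 is known from RGCs that project to the opposite side of the brain. Slc6a4, which drives the Cre here, is known from RGCs that project to the same side.

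The stretches just before the start sites of Pou4f2 and Isl1 are shown because these factors were the pair most often found together below. Both are 250 bases from RefSeq (GRCm38.p6), read 5′ to 3′ on the minus strand. Pou4f2 lies at chr8:78436648-78436897 and Isl1 at chr13:116309689-116309938, each ending at the base before the annotated gene. Capitals mark CANNTG, the E-box that factors such as Atoh7 and Neurog2 bind, and TAAT, a core bound by homeodomains.
Pou4f2: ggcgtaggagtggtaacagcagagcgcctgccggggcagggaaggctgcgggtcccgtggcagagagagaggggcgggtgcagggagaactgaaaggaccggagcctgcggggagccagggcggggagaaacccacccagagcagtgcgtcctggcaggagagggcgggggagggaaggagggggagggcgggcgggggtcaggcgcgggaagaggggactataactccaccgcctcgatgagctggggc
Isl1: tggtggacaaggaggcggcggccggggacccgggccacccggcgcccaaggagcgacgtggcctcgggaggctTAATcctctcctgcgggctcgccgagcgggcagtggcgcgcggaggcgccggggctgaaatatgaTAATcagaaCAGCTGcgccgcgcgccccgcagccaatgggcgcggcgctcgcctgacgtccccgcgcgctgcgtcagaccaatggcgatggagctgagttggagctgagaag
The Isl1 window holds 1 CANNTG, which reads CAGCTG, and 2 TAAT, and the Pou4f2 window holds 0 of either motif on both strands. Of 32851 RefSeq promoter windows of the same length, 66.2% hold a CANNTG and 54.9% a TAAT on either strand. Both windows are GC-rich, at 70.8% for Pou4f2 and 71.2% for Isl1, against a median of 52.4% over all windows. These matches describe letters and are not measured sites.

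RGCs were recognised without the members, as cells with at least 9 of 12 RGC marker genes (Sncg, Nefl, Rbpms, Ebf1, Slc17a6 and others) and at most 4 of 10 progenitor markers, each at 5 or more counts. This gave 404 cells, 90.8% of the kept Tomato+ and 29.6% of the kept Tomato- cells, so that 26.5% of them were Tomato-. Median totals were 280796 and 341071 counts per cell, and median genes 4587 and 4545. At exactly 9 markers stood 23 Tomato+ and 17 Tomato- of these cells. The RGC marker cells of the groups were not alike in other markers. The summed progenitor list had a median of 9.31 CPM (counts scaled to a total of 1000000) in Tomato+ (highest cell 392.1) and 82.5 in Tomato- cells (highest 3805). Of its 10 genes, 0 and 5 reached 5 counts in at least 10% of cells. The summed precursor list had medians of 23.9 and 146.7 CPM. The starburst amacrine list had a median of 0 in both groups. The part of these differences in the results below was not tested. Because each group is 1 sample, no test was possible. Intervals are exact 95% intervals for counting error alone, and the SD between the 10 numbers in each group's cell titles is given as a measure of spread. What a title number stands for is not given in the labels, and none holds cells of both groups, so title number and group cannot be told apart. The titles also hold a row number, and each of the 40 rows holds cells of both groups.

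Isl1 was the factor that nearly every RGC marker cell carried. A cell was counted as positive at 5 or more counts. Isl1 was positive in 97% of Tomato+ RGC marker cells, all but 9 of them (interval 94.3 to 98.6), and in 97.2% of Tomato- ones, all but 3 (92 to 99.4). It was positive in 60% of the 55 Tomato- cells that matched no class, in 42.3% of 52 neurogenic precursor marker cells and in 36.1% of progenitor marker cells. Those last positives were low, with a median of 17 counts. The positive shares of Pou4f1 and Pou4f2 fell away more steeply between these classes. Pou4f1 was positive in 77.6% of Tomato- RGC marker cells and in 13.5% of both precursor and progenitor marker cells. Pou4f2 was positive in 60.7% of the former, 5.77% of precursor and 6.77% of progenitor marker cells. The unmatched Tomato- cells held Pou4f2 in 21.8%. Pou4f3 was positive in 12.1% of Tomato- RGC marker cells, 3.01% of progenitor marker cells and 0 of 52 precursor marker cells, which allows a share of up to 5.77%. Isl2 was positive in 23.4%, 7.52% and 5.77% of the RGC, progenitor and precursor marker cells of that group. Progenitor marker cells had a median total of 225203 counts. Their few Pou4f2 positives were not low, with a median of 95 counts (229.3 CPM) in 9 cells, against 47 counts (144.04 CPM) in Tomato- RGC marker cells. Whether the positives in progenitor marker cells are background was not tested.

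**Figure D1:**
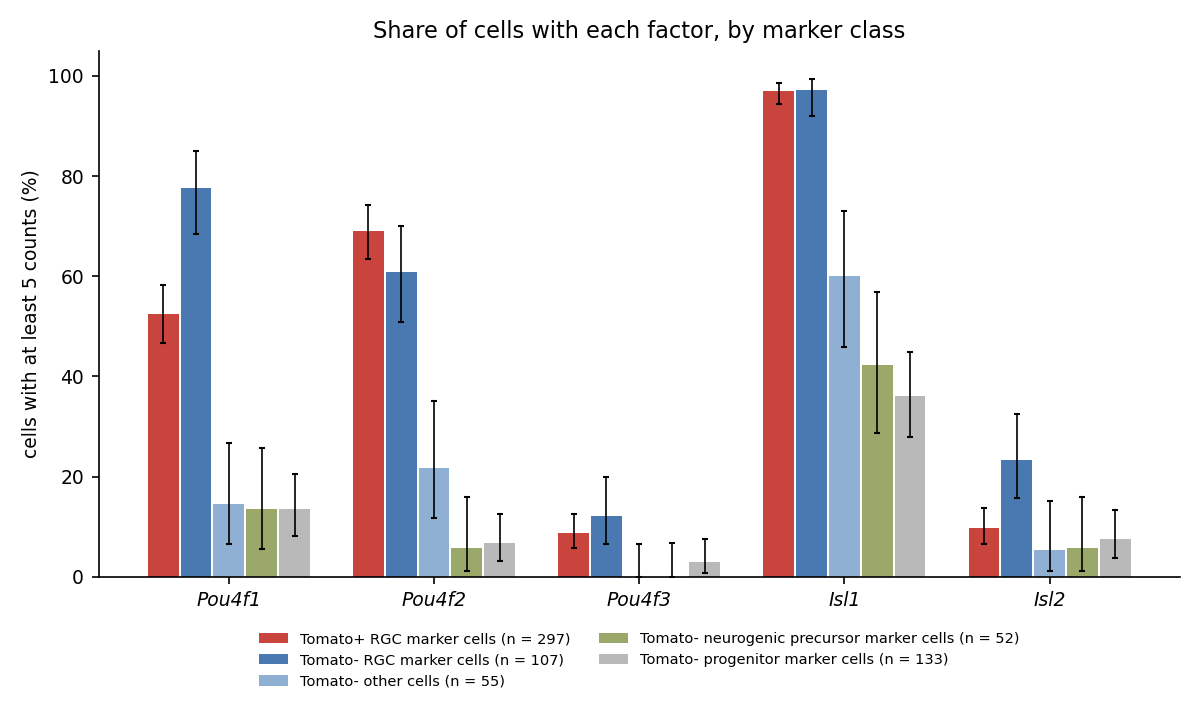
Bars show the percentage of cells with at least 5 counts of each factor, with exact 95% intervals for counting error, in 5 sets of cells. Isl1 stands near 97% in the RGC marker cells of both groups, while the other 4 factors mark fractions of them.

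Pou4f1, known for its part in the later growth and branching of RGCs, was lower in Tomato+ than in Tomato- RGC marker cells. Over the 10 Tomato+ title numbers (17 to 35 cells each) its level ran from 76.03 CPM through a median of 124.4 to 195.2. Over the 10 Tomato- title numbers (7 to 15 cells) it ran from 122.1 through 230.9 to 486.3. The ranges overlapped, but 5 of 10 Tomato+ values lay under the lowest Tomato- value and 0 lay above the Tomato- median. Summed over cells, the level was 128.01 CPM (125.6 to 130.5) against 262.9 CPM (257.6 to 268.2), a log2 ratio of -0.98. The SD between title numbers was 0.53. Pou4f1-positive cells were 52.5% of the Tomato+ set (46.7 to 58.3) and 77.6% of the Tomato- set (68.5 to 85.1). With every cell thinned to 94783 counts the shares were 41.8% and 69.5%.

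Pou4f2, the factor required earliest in newborn RGCs, was about level between the groups within RGC marker cells. It ran from 78.9 CPM through a median of 107.3 to 211.6 over Tomato+ title numbers and from 31.8 through 102.6 to 260.2 over Tomato- title numbers. The Tomato+ range lay wholly inside the Tomato- range. The log2 ratio was -0.079 (118.3 against 125.4 CPM), with an SD of 0.67 between title numbers, and it was 0.069 without Tomato- title number 17. Positive cells made up 69% (63.4 to 74.2) and 60.7% (50.8 to 70).

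Isl1, the partner of Pou4f2, had a like share in both groups but a lower level in Tomato+ RGC marker cells. It ran from 716 CPM through 832 to 1120 over Tomato+ title numbers and from 746 through 1414 to 2006 over Tomato- title numbers. The ranges overlapped, with 2 Tomato+ values under all Tomato- values and 0 above the Tomato- median. The log2 ratio was -0.71 (849 against 1395 CPM), with an SD of 0.35.

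Isl2 and Pou4f3 were carried by small groups of cells, and their levels scattered widely. Isl2 was positive in 29 Tomato+ RGC marker cells (9.76%, 6.64 to 13.7) and 25 Tomato- ones (23.4%, 15.7 to 32.5). Its level ran from 0 through 26.1 to 62.1 CPM and from 0 through 65.4 to 155.1 CPM over title numbers. All 10 Tomato+ values lay at or below the Tomato- median, and the ranges overlapped. The log2 ratio of -0.84 was smaller than the SD of 1.24. Pou4f3, best known from inner ear hair cells, was positive in 8.75% (5.80 to 12.6) and 12.1% (6.63 to 19.9). Its level ran from 2.26 through 16.7 to 61.2 CPM and from 0 through 20.5 to 156.9 CPM. The groups overlapped almost entirely, and the log2 ratio of -0.45 (SD 1.10) became 0.068 without Tomato- title number 13. On the log2(CPM + 10) scale 0 of the 5 members reached a 2-fold difference in RGC marker cells, where 0.867% of 8531 tested genes were at least 2-fold higher and 0.949% at least 2-fold lower in Tomato+. Pou4f1 lay just short of that line. Its log2 ratio was -1.03 with a pseudocount of 1 CPM, and with 10 CPM it ran from -1.07 without title number 5 to -0.86 without title number 16. The Isl2 ratio also reached -1.03 with 1 CPM.

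**Figure D2:**
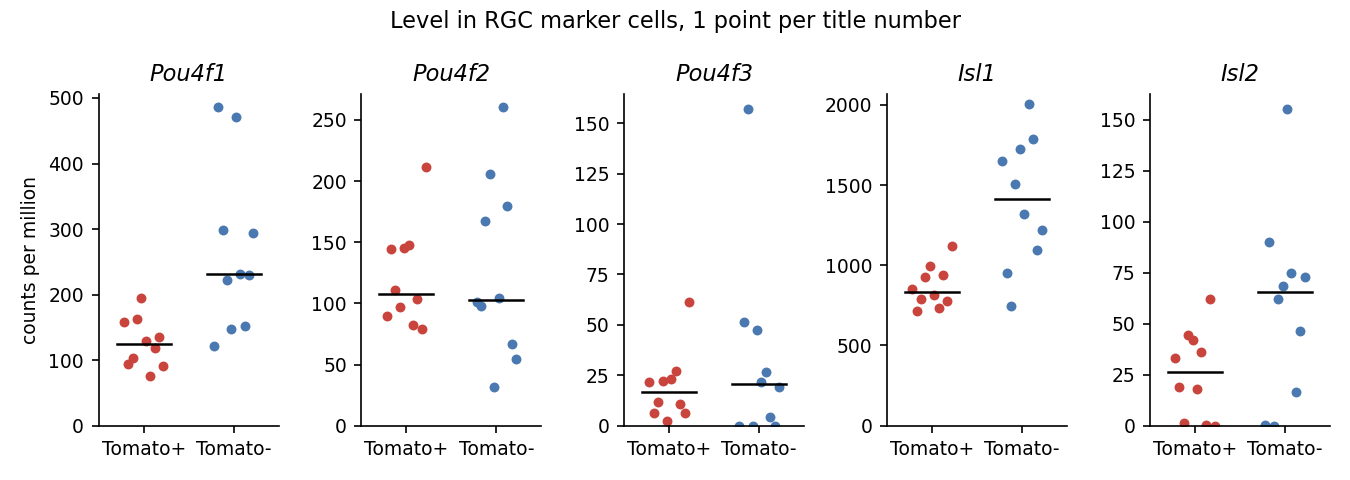
Each point is the level (summed counts, as CPM) of a factor in the RGC marker cells of 1 title number, 10 per group, and lines are medians. Tomato+ points of Pou4f1, Isl1 and Isl2 all lie at or below the Tomato- median, and the ranges of the groups overlap for every factor.

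All kept cells were also compared, of which RGC marker cells made up 90.8% in Tomato+ and 29.6% in Tomato-. The Pou4f2 level was here 118.9 CPM against 78.8 CPM, a log2 ratio of 0.54 with an SD of 0.45. The positive share of Pou4f2 ran from 48.1% to 72.7% over Tomato+ and from 17.1% to 37.8% over Tomato- title numbers. The Isl1 share ran from 81.5% to 100% and from 40% to 75%, though its log2 ratio of 0.28 was within the SD of 0.36. Within RGC marker cells both shares overlapped between the groups. There Pou4f2 ran from 57.1% to 82.4% and from 28.6% to 80%, and Isl1 from 90.9% to 100% and from 85.7% to 100%. Pou4f1, Pou4f3 and Isl2 had log2 ratios of 0.078, 0.30 and -0.076, all within their SDs. Scaling by TMM moved the median of all genes by 0.12 on the log2 scale between the groups, and the Isl2 ratio was then 0.015.

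Of the 32 possible combinations of the 5 factors, 17 occurred among the 404 RGC marker cells, 17 in Tomato+ and 12 in Tomato- cells. The most frequent in Tomato+ was Pou4f2 with Isl1 and no other member, in 99 cells (33.3%). In Tomato- the same combination made up 14 cells (13.1%). Pou4f1, Pou4f2 and Isl1 together were in 83 Tomato+ (27.9%) and 37 Tomato- cells (34.6%), the most frequent kind there. Isl1 alone was in 34 Tomato+ (11.4%) and 8 Tomato- cells (7.48%). Both combinations of Pou4f1, Isl1 and Isl2, with and without Pou4f2, were in 12 (4.04%) and 8 (2.69%) Tomato+ cells. In Tomato- they were in 12 (11.2%) and 11 (10.3%) cells. All 5 factors together were in 4 Tomato+ cells, with a median total of 450424 counts, and in 0 Tomato- cells, which allows up to 2.80%. None of the 5 was in 3 Tomato+ cells and 1 Tomato- cell, and these were shallow, with median totals of 40837 and 28648 counts.

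**Figure D3:**
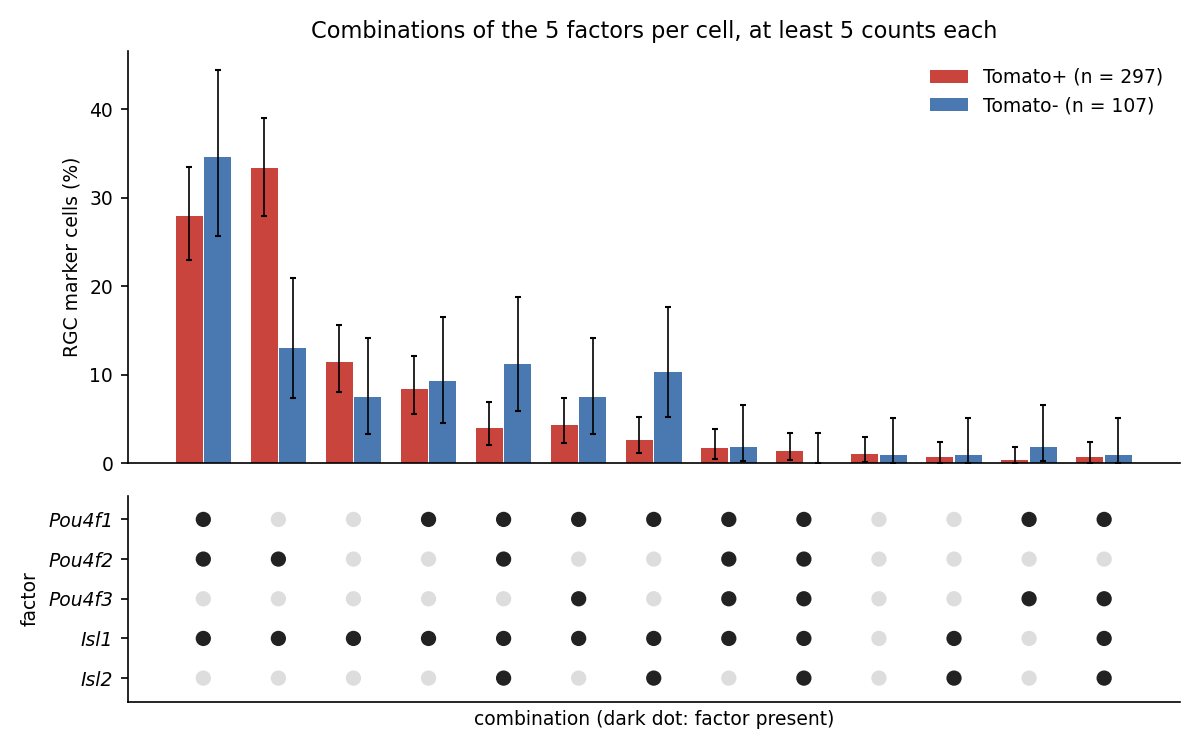
Bars give the percentage of each group's RGC marker cells with each combination of factors at 5 or more counts, with exact 95% intervals, for combinations in at least 3 cells. Dots below show which factors are present. Pou4f2 with Isl1 makes up 33.3% of Tomato+ and 13.1% of Tomato- cells.

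Split by Pou4f1 and Pou4f2 alone, Tomato+ RGC marker cells held Pou4f2 without Pou4f1 in 34% (28.6 to 39.7), against 13.1% (7.34 to 21) in Tomato-. Over title numbers this share ran from 25% through 32.3% to 47.1% and from 0% through 9.72% to 40%, so the groups overlapped. Pou4f1 without Pou4f2 made up 17.5% and 29.9%, both factors 35% and 47.7%, and neither 13.5% and 9.35%. These shares depend on the threshold of 5 counts and on depth. At 1 count, Pou4f2 without Pou4f1 was 20.9% in Tomato+ and 8.41% in Tomato-, and both factors 58.2% and 66.4%. Thinned, Pou4f2 without Pou4f1 made up 36.5% and 17.1%, and both factors 22.1% and 33.3%. The order of the groups was the same in each case. Pou4f1 was positive in 57.4% of the 270 cells with Pou4f2 (51.3 to 63.4) and in 62.7% of the cells without it (53.9 to 70.9). Thinned, these shares were 44.5% (37.9 to 51.4) and 55.3% (47.5 to 62.9), and the intervals overlapped both times. Among Pou4f1-positive cells the median Pou4f1 level was lower with Pou4f2 than without it, though the quartile ranges overlapped. In Tomato+ the median was 140 CPM with Pou4f2 (quartiles 45.9 to 296.1) and 261.5 CPM without it (104.8 to 465.4). In Tomato- it was 204.03 CPM (71.1 to 387.1) and 443 CPM (201.3 to 677.1). Across cells, log2 levels of Pou4f1 and Pou4f2 had a Pearson r of -0.19 in Tomato+ and -0.18 in Tomato- RGC marker cells, a weak relation in sparse counts.

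Within RGC marker cells, Isl2 and Pou4f3 sat almost wholly on the Pou4f1 side. Of 54 Isl2-positive cells, 51 were Pou4f1-positive (94.4%, 84.6 to 98.8), 27 of 29 in Tomato+ and 24 of 25 in Tomato-. Of the 350 cells without Isl2, 53.7% were Pou4f1-positive (48.3 to 59). After thinning the shares were 86.4% and 44.5%. Of 39 Pou4f3-positive cells, 38 were Pou4f1-positive (97.4%, 86.5 to 99.9), against 55.1% of those without Pou4f3 (49.8 to 60.2). Median totals of cells with and without Isl2 were 320798 and 287664 counts, and with and without Pou4f3 307883 and 291949 counts. The split could also be read from the Pou4f2 side. The cells with Pou4f2 but no Pou4f1, 28.5% of the 404 and from 16 title numbers, held 0 Isl2-positive and 0 Pou4f3-positive cells, which allows up to 2.61%. Their highest single-cell counts were 3 for Isl2 and 1 for Pou4f3. The 84 cells with Pou4f1 but no Pou4f2 held Isl2 in 23 (27.4%, 18.2 to 38.2) and Pou4f3 in 27 (32.1%, 22.4 to 43.2). In the cells with both, 38.4% of the 404, Isl2 was positive in 28 (18.1%, 12.4 to 25) and Pou4f3 in 11 (7.10%, 3.6 to 12.3). Over all kept Tomato- cells the split was looser for Isl2. Of 41 Isl2-positive cells there, 11 had neither Pou4f1 nor Pou4f2 and 1 had Pou4f2 only. Over all kept Tomato+ cells these were 2 and 0 of 31.

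**Figure D4:**
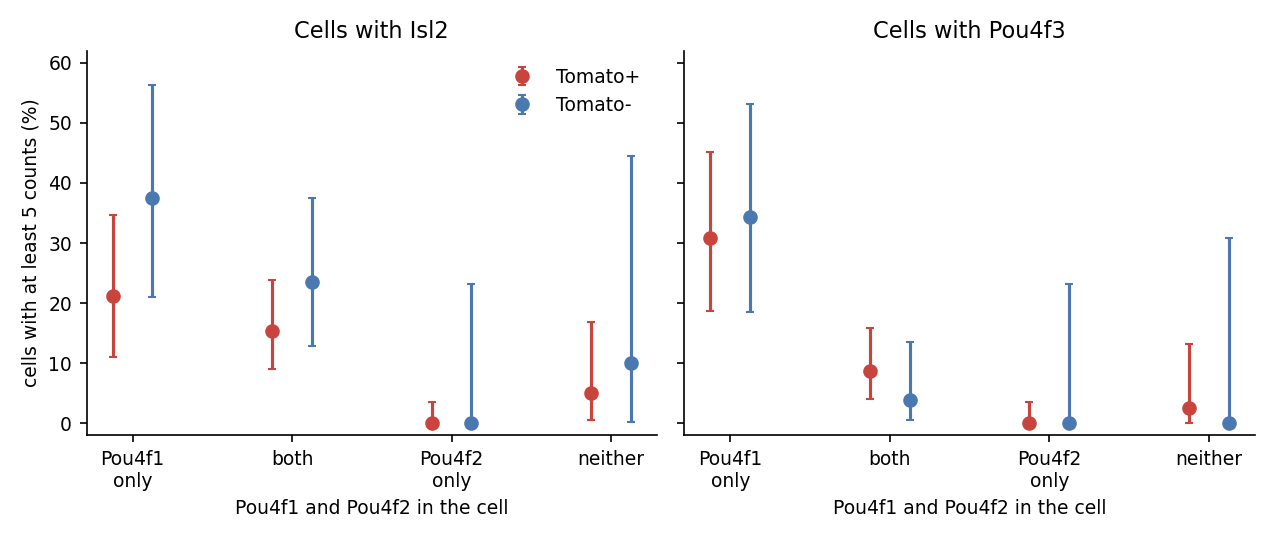
Points give the percentage of RGC marker cells with at least 5 counts of Isl2 (left) or Pou4f3 (right), split by Pou4f1 and Pou4f2, with exact 95% intervals for counting error. Both factors are at 0 in Pou4f2-only cells of both groups and highest in Pou4f1-only cells.

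Pou4f2 was less often positive in cells with Pou4f3 or Isl2 than in cells without them. Pou4f2 was positive in 11 of 39 Pou4f3-positive cells (28.2%, 15 to 44.9), against 71% of those without Pou4f3 (66 to 75.6). For Isl2 the shares were 28 of 54 (51.9%, 37.8 to 65.7) and 69.1% of 350 (64 to 73.9), and these intervals overlap. The intervals of the Pou4f3-positive and the Isl2-positive cells also overlap, so a difference between Pou4f3 and Isl2 is not shown. Isl2 and Pou4f3 met in 7 cells, 6 of them Tomato+. Isl2 was thus positive in 17.9% of the 39 Pou4f3-positive cells (7.5 to 33.5). Among cells without Pou4f3 it was positive in 12.9% (9.6 to 16.8), and these intervals overlap.

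**Figure D5:**
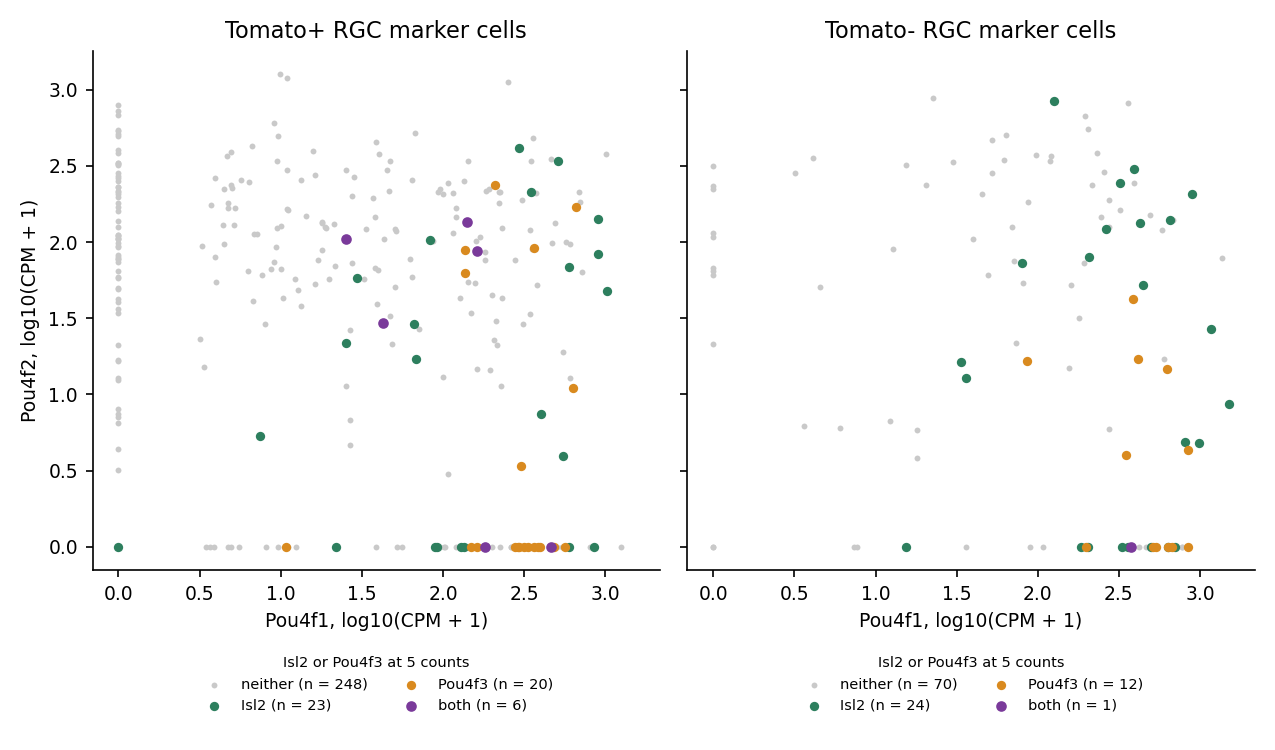
Each point is an RGC marker cell placed by its Pou4f1 level (x axis) and Pou4f2 level (y axis), both as log10(CPM + 1), and coloured by Isl2 and Pou4f3 at 5 or more counts. Coloured cells lie mostly to the right, at high Pou4f1, and are missing from the column of Pou4f2 cells at Pou4f1 of 0.

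Isl1 was frequent both with and without each other member. It was positive in all but 2 of 270 Pou4f2-positive cells (99.3%, 97.3 to 99.9) and in 92.5% of those without Pou4f2 (86.7 to 96.4). With Pou4f1 it was positive in 97.5% of cells (94.6 to 99.1) and without it in 96.4% (92.3 to 98.7). Of the 39 Pou4f3-positive cells 92.3% had Isl1 (79.1 to 98.4), against 97.5% of the others (95.4 to 98.9), and these intervals overlap. In Tomato- this was 11 of 13 cells (84.6%, 54.6 to 98.1) against 98.9% (94.2 to 99.97). The Pearson r of Isl1 and Pou4f3 across cells was -0.41 in Tomato- and -0.061 in Tomato+. Among Isl1-positive Tomato- cells its median level was 1506 CPM with Pou4f2 and 772 CPM without it. Tomato+ cells did not share this order, at 692 and 783 CPM. Across cells the Pearson r of Isl1 and Pou4f2 was 0.41 in Tomato- and 0.04 in Tomato+. Isl1 also marks amacrine cells, above all starburst cells, so cells with Isl1 and no Pou4f factor were looked at apart. There were 36 such RGC marker cells in Tomato+ (12.5% of the Isl1-positive ones) and 9 in Tomato- (8.65%). Their median Isl1 levels were 848 and 265.1 CPM. Of the 5 starburst markers, 0 of these cells had 2, while 5 of the 36 Tomato+ cells had 1. At least 3 of the 9 amacrine and horizontal markers were in 1 of the 9 Tomato- cells and in 0 of the 36. What part such cells have in the Isl1 shares was not tested.

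Genes whose level followed a member across cells were few. Among 7196 genes with 5 counts in at least 10% of both groups' RGC marker cells, 2 had a Pearson r of at least 0.3 with Pou4f1 in both. Tfap2d, the transcription factor AP-2 delta, had 0.36 in Tomato+ and 0.35 in Tomato-. Cdh4, R-cadherin, a cell adhesion protein, had 0.32 and 0.31. Tfap2d was positive in 33 Pou4f1-positive and 3 Pou4f1-negative Tomato+ cells (21.2% and 2.13% of those cells), and in 24.1% and 4.17% in Tomato-. No gene reached this likeness for Pou4f2 or Isl1, and Pou4f3 and Isl2 were too sparse in Tomato+ to be ranked.

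The wider network held 42 listed genes, of which 30 passed the low-count filter in RGC marker cells. Of these, 1 was at least 2-fold higher in Tomato+ and 4 at least 2-fold lower, where 0.867% and 0.949% of all 8531 genes tested were. The median log2 ratio of the 30 was -0.36, against -0.022 over all genes tested. Among upstream regulators, Neurod1, a neurogenic bHLH factor, had a level of 15.4 CPM in Tomato+ and of 68.01 CPM in Tomato- (log2 ratio -1.62, SD 0.78). Barhl2, a homeobox gene of RGC and amacrine subtypes, was at 3.74 and 21.9 CPM (-1.21, SD 0.59). Among RGC subtype factors, the POU factor Pou3f1 was at 15.45 and 75.3 CPM (-1.74, SD 0.75). Eomes (Tbr2), a T-box factor of non-image-forming RGCs, was the 1 higher gene, at 219.5 against 50.1 CPM (1.93, SD 1.13). The 6 tested LIM domain partners, Ldb1, Lmo1, Lmo2, Lmo4, Ssbp2 and Ssbp3, gave 0 past 2-fold, with a median of -0.60. The 8 tested genes that depend on Pou4f or Islet factors in other work also gave 0, with a median of -0.12. Counts of 0 among 6 and 8 genes lie near the shares over all genes tested. In this list Ret, the receptor for glial-derived neurotrophic factors, was at 225.5 and 118.8 CPM (log2 ratio 0.87, SD 0.65). Over all kept cells, 6 of 32 tested network genes were at least 2-fold higher and 7 lower, where 3.51% and 6.33% of 8356 tested genes were.

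Slc6a4 itself was spread over the Pou4f states in Tomato+ RGC marker cells. It was positive in 20 of 52 cells with Pou4f1 only (38.5%, 25.3 to 53) and 12 of 40 with neither factor (30%, 16.6 to 46.5). It was positive in 40 cells with Pou4f2 only (39.6%, 30.01 to 49.8) and 47 with both (45.2%, 35.4 to 55.3). These intervals overlap throughout. It was positive in 9 of 29 Isl2-positive (31%, 15.3 to 50.8) and 110 Isl2-negative Tomato+ cells (41%, 35.1 to 47.2). Its summed level was 37.8 CPM in the Isl2-positive and 116.1 CPM in the Isl2-negative cells. Eomes was positive in 48 Tomato+ cells with Pou4f2 only (47.5%, 37.5 to 57.7) and in 13 of 52 with Pou4f1 only (25%, 14 to 38.9). In Tomato- the counts were 0 of 14, which allows up to 21.4%, and 3 of 32. These cells were too few to tell whether the order was the same. The 43 genes of the network list and Slc6a4 were compared between Pou4f1-only and Pou4f2-only cells, and 0 differed by 20 points or more in the same direction in both groups. In Tomato+ 2 genes passed 20 points, and in Tomato- 11, where the cells compared were 32 and 14. Lmo2, a LIM-only partner, and Kit, a receptor tyrosine kinase, were less often positive in Pou4f1-only than in Pou4f2-only cells of both groups, but passed 20 points in 1 group each. The differences were -21.7 points in Tomato+ and -16.1 in Tomato- for Lmo2, and -16.01 and -29.5 for Kit.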

How the data were processed

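Single cells were sorted from retinas, and the labels name SmartSeq2 for the libraries while the series title names C1. Values are counts per gene and cell, whole numbers, as the authors deposited them. Column names end in umi, and whether molecules or reads were counted is not given in the sources used here. The submitters' processing notes name Seurat 2.3, R 3.4.4 and mm10; aligner, counter and annotation are not given in the sources used here. The table holds 49585 gene rows and 800 labelled cells, and 1 further column was not used. Kept cells had at most 20% mitochondrial counts and at least 1000 genes; totals ran from 9653 to 689788 counts, with medians of 271789 (Tomato+) and 243410 (Tomato-).

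Marker counts assigned classes; the cut of 9 RGC markers was set after the marker counts had been seen. Gap43 is both an RGC marker and a network gene. Precursor cells needed 4 of 7 markers, progenitor cells 5 of 10 and amacrine or horizontal cells 3 of 9. No doublet caller was run, and 1 Tomato+ and 22 Tomato- cells with 9 RGC markers and more than 4 progenitor markers were left out of the RGC class. Counts were summed per group, given as CPM (counts scaled to a group total of 1000000), and compared as log2 ratios with a pseudocount of 10 CPM; genes tested had 5 counts in at least 10% of either group's cells. Intervals are Clopper-Pearson for shares and exact Poisson for levels, at 95%; an upper limit for a count of 0 is 3 cells of the total. No test between the groups was run, since each group is 1 sample. Members and lists were chosen with earlier results of these data known. Named genes are the members, network genes past 2-fold, and the 3 most like and 3 least like genes with an r of at least 0.3 in size in both groups. Of the network genes past 2-fold, 1 is not reported here by name. Ret, Eomes by state and Slc6a4 were named after their values were seen, as were the 20-point comparisons. Alternatives were thresholds of 1 and 10 counts, thinning, mitochondrial limits, 8 or 10 RGC markers, TMM (edgeR 4.0.16) and median-of-ratios (DESeq2 1.42.0) scaling, a pseudocount of 1 CPM, leaving out title numbers, and ratios within title rows (Mantel-Haenszel weights). Ratios and shares were tested on simulated data with Python 3.11.15, numpy 2.4.6 and pandas 2.3.3.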

Additional observations from a re-analysis of the deposited data

Results flagged for a closer look

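The cells above the mitochondrial limit, used in no comparison above, still carried the factors. Among 73 Tomato+ cells, Pou4f1 was positive in 37.0%, Pou4f2 in 24.7% and Isl1 in 82.2%. Among 38 Tomato- cells the shares were 28.9%, 15.8% and 57.9%. These cells were shallow, with median totals of 94705 and 88370 counts.

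Single title numbers stood apart from the other 9 of their group in 4 of 20 sets of values. The rule was Dixon's ratio, the gap to the next value as a share of the range. The title numbers concerned, 11, 10 and 13, held only 10, 17 and 9 RGC marker cells, so no chance rate is set beside this count. Tomato- title number 11 had Pou4f1 in 40.0% of its RGC marker cells, the next lowest having 71.4%. Tomato+ title number 10 had 211.6 CPM of Pou4f2, the next highest having 147.8, and 61.2 CPM of Pou4f3, the next highest having 26.96. Tomato- title number 13 had 156.9 CPM of Pou4f3, the next highest having 51.4.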

How the results depend on the processing

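Of 656 alternative values for 29 results, 634 stayed within the spread or interval of the main value and 22 moved. The 656 include values with 1 title number left out, of which 3 moved. The other 19 moves came from the remaining alternatives. All 300 alternatives of the log2 ratios stayed within 1 SD. Ratios smaller than their SD could still change sign. Over all kept cells Pou4f1 was -0.0027 without title number 5, and Isl2 was 0.052 without title number 16 and 0.20 with a mitochondrial limit of 10%. In RGC marker cells Pou4f2 was 0.069 without title number 17 and Pou4f3 was 0.068 without title number 13. At 1 count as the threshold, RGC marker cells with Pou4f1 became 75.4% (Tomato+) and 89.7% (Tomato-), with Pou4f2 79.1% and 74.8%, with Isl1 98.99% (Tomato+), with Isl2 17.8% and 33.6%, with Pou4f2 but not Pou4f1 20.9% (Tomato+), and with both 58.2% and 66.4%. At 10 counts, Pou4f1 became 44.1% and both 25.9% in Tomato+. Thinned, Pou4f1 became 41.8% in Tomato+, Pou4f2 58.6% and 50.5%, and both 22.1% and 33.3%. The number of network genes 2-fold higher became 2 with all genes with a count and with 1 RGC marker more, and ran from 1 to 2 over title numbers left out. The cause of the moves was not tested, beyond a looser threshold or fewer counts by construction. The share of Isl2-positive RGC marker cells with Pou4f1 was a result chosen after seeing the data. It ran from 86.4% to 97.9% over its alternatives outside the title numbers, and from 93.6% to 96.2% over title numbers left out. No paired analysis was possible because each group is 1 sample and no test was run. Ratios within the row numbers of the cell titles, whose meaning the labels do not give, were added after seeing the data: over the 37 rows with RGC marker cells of both groups they were -0.89 for Pou4f1, -0.039 for Pou4f2, -0.48 for Pou4f3, -0.77 for Isl1 and -0.99 for Isl2. Depth limits absences: a cell without 5 counts may hold the transcript, and shares of different genes depend on how well each is captured.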
